A study of Mus musculus with 37 samples.

Results

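The iron handling genes followed here are 9 genes that bring iron into a cell, store it, send it out again or bind iron, haemoglobin or siderophores outside it: Tfrc, Slc11a2, Slc11a1, Fth1, Ftl1, Slc40a1, Cp, Lcn2 and Hp. They were chosen by symbol among the 24016 genes of the deposited expression table, all 9 were found, and all 9 passed the filter on low values that left 8628 genes. PolyA RNA was sequenced from bone marrow-derived macrophages (BMDMs) of WT C57BL/6J mice and of Arntl-/- mice, which lack the clock transcription factor Bmal1 and were made on a C57BL/6 background. The study describes the WT mice both as littermates and as mice from a supplier, and which of these gave the libraries is not given in the sources used here. The donors were males aged 6 to 9 weeks, marrow cells of both genotypes were grown with M-CSF for 6 days, and the cells were then given Kdo2-lipid A (KLA), a defined TLR4 agonist derived from lipopolysaccharide, for 0, 6, 24 or 48 h. The deletion is present in the whole animal, so it is not limited to macrophages, and cells without KLA were sampled at 0 h only, so time in culture and time with KLA cannot be told apart. There was 1 library for each of the 8 conditions, and no value below has a replicate check. No source names the mice or cultures behind a library. The question was how levels of these genes moved after KLA and whether they differed between the genotypes at each time.

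Macrophages recycle the iron of old red cells and hold it back during infection. Iron bound to transferrin enters through the transferrin receptor, crosses the endosomal membrane through divalent metal transporters, is stored inside ferritin shells and leaves through ferroportin, with oxidases helping to load it onto transferrin outside. Several of these messages carry an iron-responsive element (IRE), a short RNA hairpin bound by the iron regulatory proteins when the cell is short of iron. An IRE in the 5′ untranslated region then holds back translation, whereas IREs in the 3′ untranslated region of the Tfrc message protect it from decay. Inflammatory signals act on the same genes by other routes, and lipocalin 2, haptoglobin and ceruloplasmin are classical acute phase proteins.

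The hairpins are shown because they mark messages that iron is known to act on directly. RNA sequencing reads RNA levels and would miss the control of translation through a 5′ hairpin. A search of the transcribed strand of annotated mm9 transcripts for a bulged C, a 5-base paired stem and the loop letters CAGTGN found a site in the 5′ untranslated region of 3 members, Fth1, Ftl1 and Slc40a1, and in the 3′ untranslated region of 1 member, Tfrc. The same search found a 5′ site in 32 of 19854 genes (0.161%) and a 3′ site in 124 of 19915 (0.623%). Each sequence is written 5′ to 3′ on the transcribed strand as DNA, and capitals mark the 6 bases of the loop.
Fth1, 5′ site, chr19:10057223-10057249, plus strand: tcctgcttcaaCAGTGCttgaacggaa
Ftl1, 5′ site, chr7:52715150-52715176, minus strand: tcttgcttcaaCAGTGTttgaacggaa
Slc40a1, 5′ site, chr1:45982311-45982337, minus strand: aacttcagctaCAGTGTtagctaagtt
Tfrc, 3′ site, chr16:32631306-32631332, plus strand: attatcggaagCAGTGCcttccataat
Tfrc, 3′ site, chr16:32631685-32631711, plus strand: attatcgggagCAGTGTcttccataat
Tfrc, 3′ site, chr16:32631750-32631776, plus strand: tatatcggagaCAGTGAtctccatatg
Tfrc, 3′ site, chr16:32631797-32631823, plus strand: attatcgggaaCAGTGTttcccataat
The 4 Tfrc sites lay between bases 32631306 and 32631823. No site with these letters was found in the other 5 members, although an IRE in a 3′ variant of the Slc11a2 message is well known, so the search does not find every IRE.

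Levels are given as scaled FPKM, that is, reads per kilobase of exon and per 10000000 reads, divided by a median-of-ratios size factor for the library. The libraries held 8587561 to 27036785 reads on genes. The deepest was WT at 6 h and the shallowest were those at 48 h (9191165 in WT and 8587561 in Arntl-/-). Arntl itself, the deleted gene, stood at 34.3, 32.3, 35.6 and 38.7 scaled FPKM in WT at 0, 6, 24 and 48 h and at 13.9, 11.3, 18.8 and 20.2 in Arntl-/-, lower in every library labelled as knockout but not at 0. All 8 macrophage markers found, among them Csf1r, Emr1 and Cd68, were detected in every library. Of the KLA response genes, Saa3 (5559 in WT and 3035 in Arntl-/-) and Irg1 (1030 and 1008) were already high at 0 h. So was Tnf (508 and 605), which was at 468 and 522 at 24 h, and Saa3 in WT fell to 3293 at 6 h. Il1b was at 46.2 in WT and 92.1 in Arntl-/- before KLA and at 594 and 707 after 24 h. Nos2 was at 11.9 and 31.5 before KLA and at 115 and 274 after 24 h. Cxcl10 and Il6 were also higher at 24 h than at 0 h in both genotypes. Because RNA came from bulk cultures, fewer cells of a type and less RNA per cell cannot be told apart.

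The members spanned a wide range of levels, and the order was Fth1 (mean over the 8 libraries 14115 scaled FPKM), Ftl1 (10241), Slc11a1 (1139), Hp (965), Lcn2 (786), Slc11a2 (417), Tfrc (216), Slc40a1 (98.2) and Cp (54.1). Fth1 lay above Ftl1 in all 8 libraries, by 1.18 to 1.53 times in reads per base. The place of Hp (353 to 1878) depended on the library. It lay below Slc11a1 (848 to 1651) in 5 of the 8 libraries, below Lcn2 (531 to 1294.5) in 4 and below Slc11a2 (380.2 to 492) in 2, both at 0 h. Every other pair kept its order in all 8 libraries, although the ranges of Slc11a1 and Lcn2, of Tfrc (129 to 311) and Slc40a1 (58.8 to 176), and of Slc40a1 and Cp (27.2 to 88.4) overlapped.

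**Figure D1:**
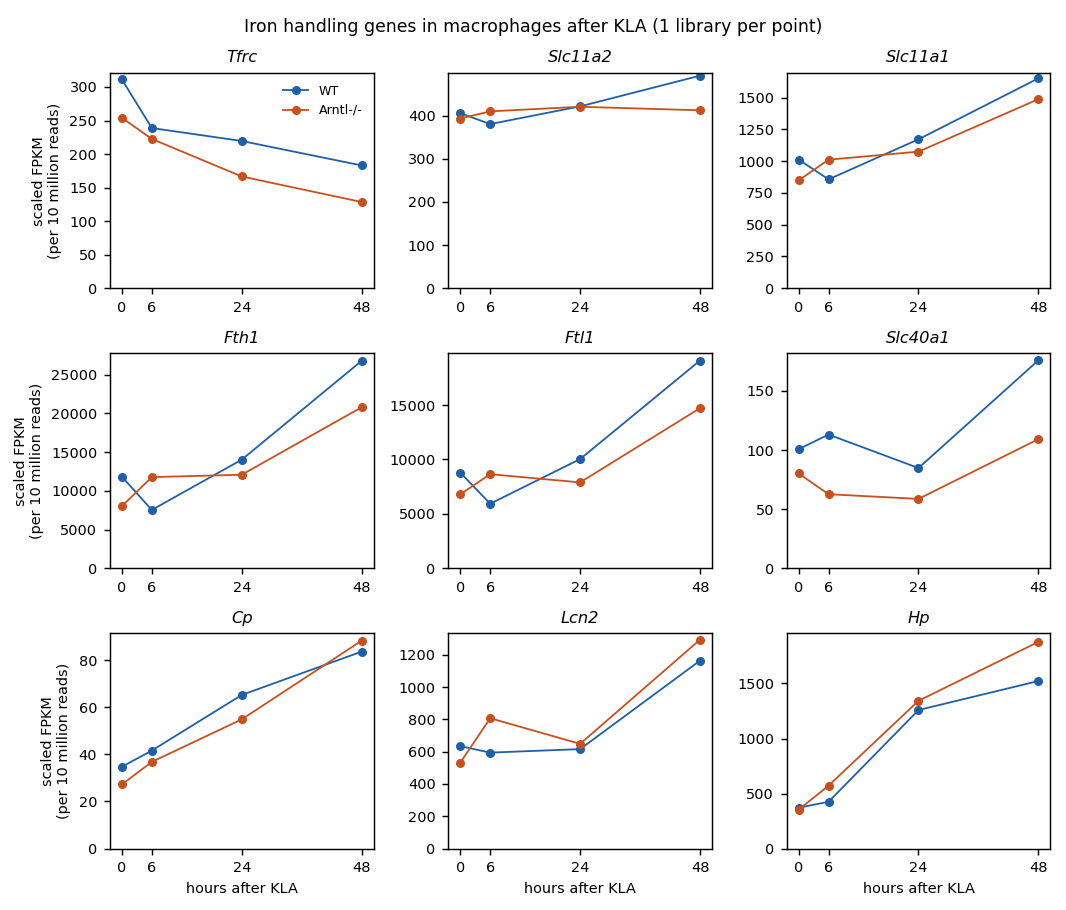
Scaled FPKM (y axis, linear, from 0) of each of the 9 genes against hours after KLA (x axis), in WT (blue) and Arntl-/- (orange) macrophages. Each point is 1 library. Hp and Cp were higher at 24 and 48 h than at 0 h in both genotypes, Tfrc was lowest at 48 h in both, and the Arntl-/- line lay below the WT line at every time for Slc40a1 and Tfrc.

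Between the genotypes, few of the 9 genes differed by more than 1.5-fold at any time. None did at 0 h, where 1.37% of all genes tested were past 1.5-fold higher and 0.939% past 1.5-fold lower in Arntl-/-. At 6 h, 1 was higher (Fth1, background 1.77%) and 1 lower (Slc40a1, background 0.800%). At 24 h there were again 0, against 1.70% higher and 1.15% lower in the background, and at 48 h 1 was lower (Slc40a1, background 3.14%) and 0 were higher (background 2.97%). The median log2 difference of the members (Arntl-/- minus WT) was -0.29, 0.24, -0.22 and -0.26 at 0, 6, 24 and 48 h, beside -0.03, 0.02, -0.01 and -0.02 over all genes. With the trend of each library with expression level subtracted, the members' median was -0.04, -0.14, 0.05 and -0.17, so its sign turned at 6 and 24 h. Brackets after a log2 value give its 95% counting interval, an exact conditional binomial interval on reads divided by 6, since 1 fragment could add up to 6 reads. It covers counting error only.

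**Figure D2:**
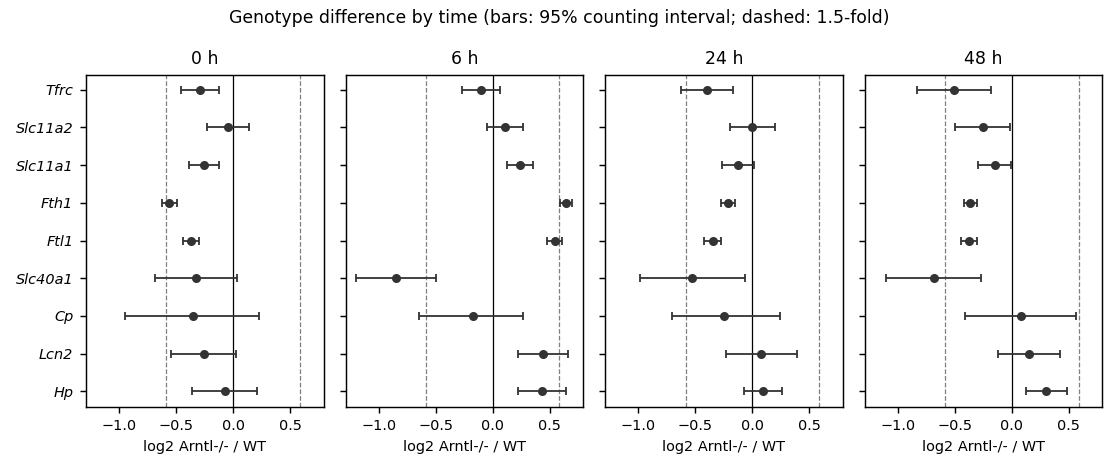
Log2 ratio of scaled FPKM, Arntl-/- over WT (x axis), for each of the 9 genes (y axis) at 0, 6, 24 and 48 h. Points are single pairs of libraries, bars are 95% counting intervals, and dashed lines mark 1.5-fold. Slc40a1 lay below 0 at all 4 times and past the line at 6 and 48 h, and Fth1 and Ftl1 lay below 0 at 0, 24 and 48 h but above it at 6 h, where both turned below 0 (-0.14 and -0.20) with the trend by expression level subtracted.

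Slc40a1 (NM_016917, chromosome 1, 45964915 to 45982439, minus strand in mm9) encodes ferroportin, the only known iron exporter of mammalian cells, and gave the widest genotype difference of the 9 genes. In WT macrophages its level was 101, 113, 84.9 and 176 scaled FPKM at 0, 6, 24 and 48 h. In Arntl-/- macrophages it was 80.3, 62.7, 58.8 and 109. The Arntl-/- library was the lower one at every time, and the Arntl-/- value at 48 h was near the WT values at 0 and 6 h. The log2 difference at these times was -0.33 (-0.69 to 0.04), -0.85 (-1.196 to -0.50), -0.53 (-0.99 to -0.07) and -0.69 (-1.11 to -0.27), so the interval took in 0 at 0 h and lay below it at the 3 later times. Of the 8628 genes tested, 633 (7.34%) were lower in Arntl-/- at all 4 times at any size, and 34 (0.394%) were lower at all 4 and past 1.5-fold at 2 or more, as Slc40a1 was. These patterns were not among the planned comparisons and were added for use beside the members, so the shares are a description only. The values stayed close to these with the deposited FPKM left unscaled (-0.25, -0.99, -0.48 and -0.64). They did so too after the trend of each library with expression level was subtracted (-0.36, -0.79, -0.56 and -0.68).

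Within a genotype, Slc40a1 was past 1.5-fold higher at 48 h than at 0 h in WT (log2 0.80, 0.44 to 1.17) and below that line in Arntl-/- (0.44, 0.03 to 0.85). At 6 h it was 0.17 (-0.14 to 0.48) in WT and -0.36 (-0.75 to 0.04) in Arntl-/-, and at 24 h -0.25 and -0.45. The highest level in either genotype was thus at 48 h. The summed level of 7 stromal genes, all detected, was 482, 591, 688 and 1361 in WT and 360, 393, 428 and 773 in Arntl-/- at 0, 6, 24 and 48 h, lower in Arntl-/- at every time and highest at 48 h. Col1a1, the type I collagen chain, led that list with 166 to 525 in WT and 125 to 289 in Arntl-/-, and Col1a2, Col3a1 and Sparc had the same order. Dcn, the matrix proteoglycan decorin, was instead higher in Arntl-/- at 0, 24 and 48 h (39.1, 37.0 and 91.3 against 16.8, 29.3 and 62.3 in WT), whereas the receptor genes Pdgfra and Pdgfrb were lower in Arntl-/- at 0, 6 and 24 h and about level at 48 h (2.51 against 2.30 and 9.40 against 9.33). The part of these cells in the Slc40a1 values was not tested. The genes whose levels followed Slc40a1 most closely over the 8 libraries were Dlat (Pearson r 0.975), Col12a1 (0.973), a collagen, and Mrpl10 (0.966). Of these 3 only Col12a1 was still among the nearest 3 with the values left unscaled, beside Tshz1 and Akr1b8.

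Tfrc (NM_011638, chromosome 16, 32608982 to 32632880, plus strand), the transferrin receptor, was the 1 member with a lower level at 48 h than at 0 h in both genotypes. Its WT levels were 311, 239, 219.5 and 183 scaled FPKM at 0, 6, 24 and 48 h. The Arntl-/- levels were 254, 223, 167 and 129. Each series was ordered by time without an exception, and Arntl-/- was lower at all 4 times. From 0 to 48 h the log2 change was -0.77 (-1.01 to -0.53) in WT and -0.98 (-1.26 to -0.71) in Arntl-/-, past 1.5-fold in both, where 9.46% of all genes were past 1.5-fold lower in both genotypes. At 24 h it was -0.50 in WT and -0.61 in Arntl-/-, and only the second passed the line. The genotype differences were smaller, at -0.29 (-0.46 to -0.12), -0.10 (-0.27 to 0.06), -0.40 (-0.63 to -0.17) and -0.51 (-0.83 to -0.18), and none reached 1.5-fold.

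Tfrc is a receptor that dividing cells are known to need for iron, and proliferation markers were read beside it. The summed level of 8 such genes was 4353, 3252, 3409 and 2222 in WT and 3859, 3647, 2554 and 1848 in Arntl-/-, lowest at 48 h in both. Each of the 8 was lowest at 48 h in both genotypes except Pcna, the most abundant, which was lowest at 6 h in WT (1187, with 1331 at 48 h) and at 24 h in Arntl-/- (1065, with 1112 at 48 h). Nearest to Tfrc over the 8 libraries were Lig1 (r 0.991), the replicative DNA ligase, Clcn5 (0.988), an endosomal chloride transporter, and Nucks1 (0.985). Lig1 itself was at 493 scaled FPKM at 0 h and 191 at 48 h in WT, with 361 and 113 in Arntl-/-. The part of cell division in the Tfrc values was not tested.

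The 2 divalent metal transporters, which move iron out of the endosome or phagosome, varied less than the other members. Slc11a2 (NM_008732, chromosome 15, 100218331 to 100253486, minus strand), known as DMT1, was at 406, 380.2, 421 and 492 in WT and at 393, 409.7, 420.3 and 412 in Arntl-/-. Its highest library was 1.29 times its lowest, no comparison passed 1.5-fold, and its sign between genotypes at 0, 6 and 24 h turned when the values were left unscaled and when the trend by expression level was subtracted. Slc11a1 (NM_013612, chromosome 1, 74421777 to 74432625, plus strand), the phagosomal transporter Nramp1 that restricts growth of intracellular bacteria, was at 1012, 857, 1172 and 1651 in WT and at 848, 1011, 1075 and 1487 in Arntl-/-. It was highest at 48 h in both, with log2 changes from 0 h of 0.71 (0.57 to 0.85) and 0.81 (0.67 to 0.95). With the trend by expression level subtracted these were 0.36 and 0.29, no longer past 1.5-fold, and the WT change was also short of it with unscaled values (0.57). Common C57BL/6 mice carry a loss-of-function allele of Slc11a1, so its RNA level here says nothing of transport.

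Ferritin RNA was the most abundant of the group. Fth1 (NM_010239, chromosome 19, 10057136 to 10059601, plus strand) encodes the heavy chain, which oxidises iron, and Ftl1 (NM_010240, chromosome 7, 52713314 to 52715256, minus strand) the light chain, which helps the core to form. Fth1 stood at 11841, 7548, 14037 and 26793 scaled FPKM in WT and at 8028, 11784, 12089 and 20801 in Arntl-/-. Ftl1 stood at 8803, 5938, 10038 and 19087 in WT and at 6801, 8649, 7898 and 14712 in Arntl-/-. Both were lowest at 6 h in WT, lowest at 0 h in Arntl-/- and highest at 48 h in each genotype. Both genes have processed pseudogenes in the mouse genome, and reads shared with such copies could not be told apart here.

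From 0 to 48 h the log2 change of Fth1 was 1.18 (1.12 to 1.24) in WT and 1.37 (1.31 to 1.44) in Arntl-/-, and that of Ftl1 was 1.12 (1.05 to 1.18) and 1.11 (1.04 to 1.18). The chains differed more at 24 h in Arntl-/-, where Fth1 had changed by 0.59 (0.53 to 0.65) and Ftl1 by 0.22 (0.15 to 0.29). With the trend by expression level subtracted, these 24 h changes were 0.22 for Fth1, short of 1.5-fold, and -0.12 for Ftl1. Between genotypes Fth1 differed by -0.56 (-0.62 to -0.50), 0.64 (0.59 to 0.70), -0.22 (-0.28 to -0.15) and -0.37 (-0.42 to -0.31) at 0, 6, 24 and 48 h. Ftl1 differed by -0.37, 0.54, -0.35 and -0.38. The sign thus turned at 6 h for both chains, and Fth1 passed 1.5-fold there. With unscaled values that difference (0.51) fell short of 1.5-fold, as did the Fth1 changes from 0 to 6 h in WT (-0.49) and from 0 to 24 h in Arntl-/- (0.52).

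Library depth moved with these values. At 0, 6 and 24 h the deeper library of each pair, Arntl-/- at 0 h (18166576 against 13080318 reads), WT at 6 h (27036785 against 15461831) and Arntl-/- at 24 h (15350456 against 10685711), had the lower ferritin level. At 48 h the depths were close (8587561 in Arntl-/- and 9191165 in WT) and both chains were lower in Arntl-/-. The reads behind the levels varied far less than the depth did, which spanned 3.15-fold. Fth1 had 25.1, 36.9, 23.5 and 35.7 reads per base in WT and 25.1, 29.9, 30.3 and 26.7 in Arntl-/-, a span of 1.57-fold, and at 0 h the genotypes had nearly the same number of Fth1 reads (23498 in WT and 23468 in Arntl-/-) at different depths. Fth1 ranked 2 or 3 and Ftl1 4 in reads per base among the genes ranked, from which the shortest genes were left out. After the trend with expression level was subtracted, the 48 h change of Fth1 was 0.19 in WT and 0.05 in Arntl-/-, that of Ftl1 was 0.21 and -0.11, and the 6 h genotype difference was -0.14 for Fth1 and -0.20 for Ftl1. The genotype differences at 0, 24 and 48 h became -0.04, 0.21 and -0.17 for Fth1 and 0.12, 0.05 and -0.20 for Ftl1, so that 48 h was the 1 time at which both chains kept their sign. Fth1 and Ftl1 lay above 99.99% and 99.98% of all genes, at the end of the fitted curve. A change of their own and a trend of the library cannot be told apart there. The deposited values were counted with at most 3 copies kept per position, and the part of that setting and of depth in the ferritin values was not tested.

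**Figure D3:**
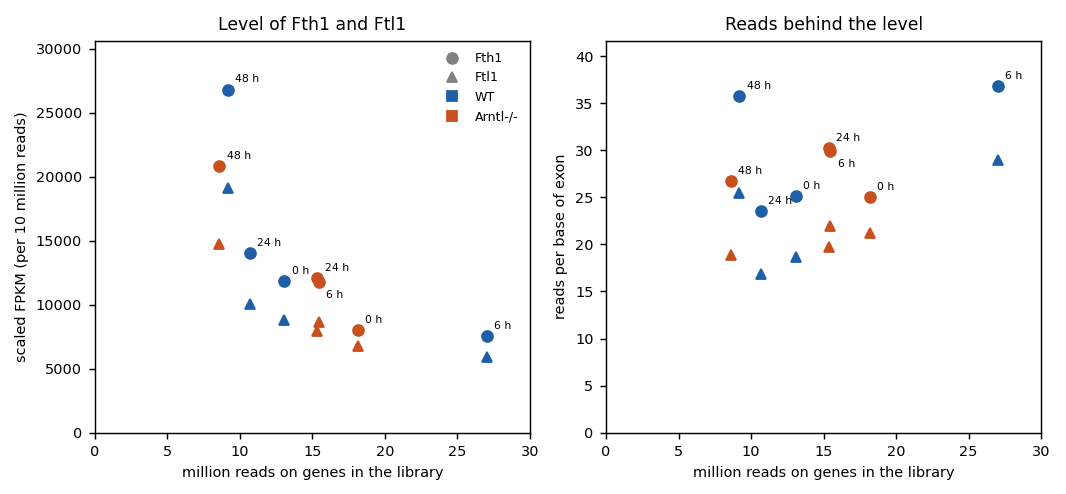
Left, scaled FPKM of Fth1 (circles) and Ftl1 (triangles) against reads on genes in the library (x axis, from 0), in WT (blue) and Arntl-/- (orange), with the hours after KLA written beside each Fth1 point. Right, reads per base of exon for the same points, which lay between 23.5 and 36.9 for Fth1 while depth lay between 8587561 and 27036785 reads.

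The genes nearest to the ferritin chains over the 8 libraries were themselves abundant or moved with the same libraries. For Fth1 they were AI837181 (r 0.994), Prkcb (0.994) and B2m (0.992), the invariant MHC class I chain. For Ftl1 they were Cox6a1 (0.993), Ctsd (0.993), the lysosomal protease cathepsin D, and Prdx1 (0.992), a peroxiredoxin. Among the members themselves, Fth1 correlated with Slc11a1 at 0.992 and with Ftl1 at 0.987, whereas Slc40a1 correlated with Fth1 at 0.524 and with Hp at 0.195. All these values rest on 8 libraries that share depth and scaling, and they are given as a description.

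Hp (NM_017370, chromosome 8, 112099028 to 112103072, minus strand), which encodes haptoglobin, the plasma protein that captures free haemoglobin, had the steepest time course of the 9 genes. WT macrophages held 371, 425, 1259 and 1523 scaled FPKM at 0, 6, 24 and 48 h. Arntl-/- macrophages held 353, 571, 1343 and 1878. All levels at 24 and 48 h lay above all those at 0 and 6 h in both genotypes. The log2 change from 0 h was 1.76 (1.504 to 2.02) at 24 h and 2.04 (1.78 to 2.29) at 48 h in WT, and 1.93 (1.72 to 2.14) and 2.41 (2.19 to 2.63) in Arntl-/-. Over all genes tested, 4.59% were past 1.5-fold higher in both genotypes at 24 h and 8.63% at 48 h. At 6 h the change was 0.19 (-0.07 to 0.45) in WT and 0.70 (0.45 to 0.94) in Arntl-/-, past 1.5-fold in the second. With the trend by expression level subtracted it was 0.52 in both, short of 1.5-fold. Between genotypes Hp differed by -0.07, 0.43 (0.22 to 0.64), 0.09 and 0.30 (0.12 to 0.49), never past 1.5-fold, and the 6 h difference fell to 0.10 with the trend subtracted. The nearest gene was Acsl1 (r 0.996), an acyl-CoA synthetase whose level at 0 and 48 h was 403 and 1138 in WT and 412 and 1363 in Arntl-/-, followed by Samhd1 (0.992) and Pon2 (0.991). With unscaled values Acsl1 remained nearest and Msrb1 and Npepps took the other places.

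Cp (NM_007752, chromosome 3, 19857054 to 19892998, plus strand) encodes ceruloplasmin, the copper oxidase that works with ferroportin, and was the least abundant member. Its levels were 34.8, 41.6, 65.3 and 83.7 in WT and 27.2, 36.8, 54.9 and 88.4 in Arntl-/-, ordered by time in both. The log2 change from 0 h was 0.91 (0.33 to 1.45) at 24 h and 1.27 (0.71 to 1.81) at 48 h in WT, and 1.01 (0.51 to 1.52) and 1.69 (1.17 to 2.22) in Arntl-/-. Each of these was past 1.5-fold, and the same values after subtraction of the trend by level were 0.96, 1.40, 1.06 and 1.86. Genotype differences lay between -0.35 and 0.08, and all 4 counting intervals took in 0. Closest in pattern were Pvrl2 (r 0.989), Oaz2 (0.987) and Bsdc1 (0.987).

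Lcn2 (NM_008491, chromosome 2, 32240157 to 32243259, minus strand) encodes lipocalin 2, which starves bacteria of iron by binding their siderophores. Its scaled FPKM was 635, 594, 616 and 1165 in WT and 531, 808, 649 and 1294.5 in Arntl-/- at 0, 6, 24 and 48 h. In WT the first 3 times were level and 48 h stood apart, and in Arntl-/- there was also a higher value at 6 h. The change from 0 to 48 h was 0.88 (0.59 to 1.16) in WT and 1.28 (1.01 to 1.55) in Arntl-/-, and 0.62 and 0.91 with the trend by level subtracted. From 0 to 6 h it was -0.09 (-0.35 to 0.16) in WT and 0.60 (0.35 to 0.86) in Arntl-/-. The second was past 1.5-fold as scaled, but not unscaled (0.55) or with the trend subtracted (0.44). The genotype difference was -0.26, 0.44 (0.22 to 0.66), 0.07 and 0.15, and only at 6 h did its interval leave out 0. With the trend subtracted, that 6 h difference was 0.13. Psma5 (r 0.976), Hk1 (0.975), a hexokinase, and Rnf185 (0.973) were nearest to it, and with unscaled values Mrpl14, Kcmf1 and Hk1 were.

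Lcn2 and Hp are also stored in granules of maturing neutrophils, and Hp and Cp are made by the liver, so markers of those cells were read beside them. Of the 11 neutrophil markers found, Mpo and Elane were at the floor of 3 reads in every library. S100a9 was at 164, 207 and 148 in WT and at 403, 428 and 371 in Arntl-/- at 0, 6 and 24 h, but at 10.1 and 9.00 at 48 h, when Lcn2 and Hp were highest. Ltf and Ngp, both of the same granules, were likewise lowest at 48 h, with Ltf at 0 reads in both libraries. Camp, another granule gene, was not: it was at 12.4, 17.9, 13.5 and 26.3 in Arntl-/- and at 0, 14.5, 10.1 and 7.58 in WT. S100a8 and Mmp8, the most abundant of the list, were highest at 48 h in both genotypes (910 and 1642 in WT, 905 and 1941 in Arntl-/-). The sum of the neutrophil list was 1586, 1240, 1896 and 2570 in WT and 1981, 2132, 2070 and 2885 in Arntl-/- at 0, 6, 24 and 48 h, highest at 48 h, and its part in the Lcn2 and Hp values was not tested. Alb, Apoa1 and Fgb, defining genes of hepatocytes, were at the floor throughout (sum of 4 genes 0 to 1.30), and the globin genes Hbb-b1 and Hbb-bt of red cell precursors were too.

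Counted together, the 9 genes moved mostly at 48 h. In WT 7 were past 1.5-fold higher (background 11.3%) and 1 lower (background 12.8%), and in Arntl-/- 6 were higher (background 14.1%) and 1 lower (background 15.2%). The median log2 change was 0.88 in WT and 1.11 in Arntl-/-, beside 0.00 and 0.00 over all genes. Macrophage markers moved with them: the summed level of the 8 found was 20161, 15088, 26635 and 37621 in WT and 16992, 20360, 24967 and 33590 in Arntl-/- at 0, 6, 24 and 48 h, lowest at 6 h in WT and highest at 48 h in both. Lyz2, the lysozyme gene, made up the largest share (9926 and 21812 at 0 and 48 h in WT, 8395 and 17959 in Arntl-/-). Mertk went otherwise, at 122, 138, 147 and 193 in WT and at 108, 107, 165 and 141 in Arntl-/-. WT at 6 h was also the deepest library and those at 48 h the shallowest, and the sums were not read with the trend by expression level subtracted. The part of macrophage content and of depth in the members' values was not tested. After subtraction of the trend by expression level, the members' median was 0.36 in WT and 0.29 in Arntl-/-. Then 5 members in WT and 4 in Arntl-/- remained past 1.5-fold in either direction (22.1% and 24.9% of all genes), namely Tfrc, Cp, Lcn2 and Hp in both and Slc40a1 in WT. At 24 h, 2 were higher in WT (Cp and Hp, background 6.91%) and 0 lower (6.49%), and in Arntl-/- 3 were higher (Fth1, Cp and Hp, background 6.79%) and 1 lower (Tfrc, 7.24%). At 6 h, 1 was lower in WT (Fth1, background 3.05%) and 0 higher (3.18%), and 2 were higher in Arntl-/- (Lcn2 and Hp, background 2.29%) and 0 lower (1.60%). In both genotypes, the later times share the same 0 h library.

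**Figure D4:**
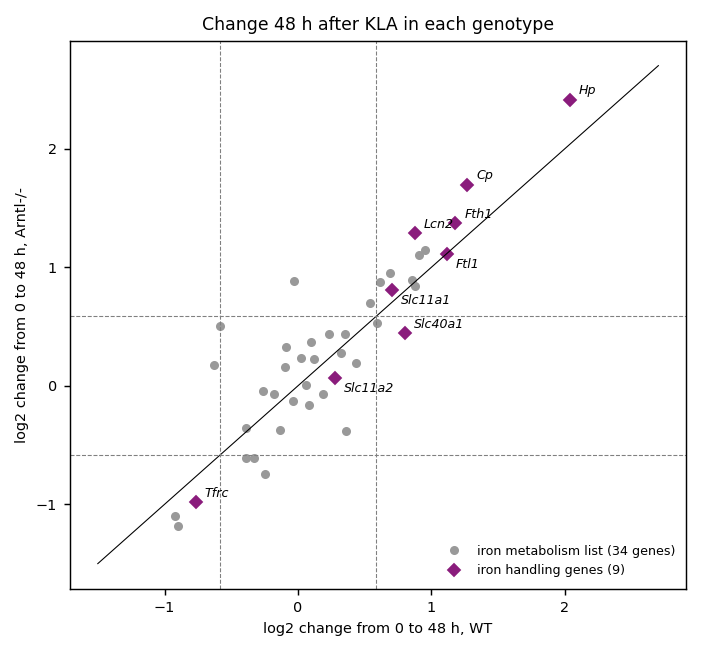
Log2 change from 0 to 48 h in WT (x axis) and in Arntl-/- (y axis) for the 9 iron handling genes (purple diamonds, named) and the 34 other genes of iron metabolism that passed the filter (grey points). Dashed lines mark 1.5-fold and the diagonal equal change. Hp, Cp, Fth1, Ftl1, Lcn2 and Slc11a1 lay past 1.5-fold higher in both genotypes and Tfrc past 1.5-fold lower in both.

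Other genes of iron metabolism were read from a list of 59, of which 57 were in the table and 34 passed the filter. Between the genotypes 0, 0, 1 and 1 were past 1.5-fold higher and 1, 1, 0 and 1 lower at 0, 6, 24 and 48 h, and 1 gene is 2.94% of the list, near or above the shares of all genes (1.37, 1.77, 1.70 and 2.97% higher and 0.939, 0.800, 1.15 and 3.14% lower). With a filter at a mean of 10, 5 of 42 list genes (11.9%) were past 1.5-fold in either direction at 0, 6 and 48 h and 1 (2.38%) at 24 h, beside 9.09, 7.77, 16.8 and 11.2% of all genes. After KLA, 7 of the 34 were past 1.5-fold higher and 4 lower at 48 h in WT (20.6% and 11.8% of the list), and 8 were higher and 5 lower in Arntl-/- (23.5% and 14.7%), so the lower counts were near the background. With the trend by expression level subtracted, 6 of the list in WT and 9 in Arntl-/- were past 1.5-fold in either direction, instead of 11 and 13. Those were 17.6% and 26.5% of the list beside 22.1% and 24.9% of all genes, near the background. Past 1.5-fold higher in both genotypes at 48 h were 6 (17.6% of the list, background 8.63%). They were Hmox1, the heme oxygenase that frees iron from haem, with log2 0.95 in WT and 1.14 in Arntl-/-, and Slc48a1, the haem transporter of the phagolysosome, with 0.91 and 1.11. Blvrb, Alas1, Slc25a37 and Iscu were so too, with 0.62 to 0.88 in WT and 0.84 to 0.95 in Arntl-/-.

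At 24 h, 1 list gene was past 1.5-fold higher in both genotypes (2.94%, background 4.59%) and 3 were lower in both (8.82%, background 3.78%). Slc25a37, the mitochondrial iron importer mitoferrin 1, was higher (255, 396, 529 and 469 in WT and 341, 456, 637 and 609 in Arntl-/- over the 4 times), with log2 changes at 24 h of 1.05 in WT and 0.90 in Arntl-/-. Slc39a8 (-0.83 in WT and -0.95 in Arntl-/-) and Slc39a14 (-0.66 and -0.69), metal importers of the ZIP family that can carry iron not bound to transferrin, were lower. Steap3, the endosomal reductase that works beside Tfrc and DMT1, was lower as well (-0.86 and -0.65). At 24 h these 3 were thus lower than at 0 h, as Tfrc was, although Tfrc passed 1.5-fold in Arntl-/- only (-0.61, and -0.50 in WT). Steap3 did not keep to this in WT, at 173, 145, 95.2 and 145 over the 4 times, with a log2 change of -0.25 at 48 h. Hamp, the hepcidin gene, and the oxidases Heph and Hephl1 did not pass the filter.

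Upstream of the start sites, 6 of the 9 members had an entry in RefSeq promoters of GRCm38.p6, giving 9 windows, and Slc40a1, Slc11a2 and Hp had none. Searched on both strands over the 250 bases before each start, none of these 6 held CACGTG, the E-box letters bound by Clock and Bmal1. Those letters were in 6.02% of 32851 promoters, so their absence from 9 windows says little. The 6 also lacked the NF-kB motif (0.356%), the ISRE (2.98%) and the antioxidant response element (10.2%). The C/EBP letters TTGCNNAA (9.56% of promoters) were found in a window of Lcn2, Cp and Fth1, the RevErb/ROR half-site AGGTCA (14.0%) in that of Slc11a1, and the hypoxia response core ACGTG (16.6%), which is also part of CACGTG, in a window of Tfrc. A match of letters is a description of the sequence and not a binding site.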

How the data were processed

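The 8 BMDM RNA-seq libraries among 37 samples were used. Per the labels and file headers, the authors mapped paired reads to mm9 using STAR. HOMER then summed them over exons of RefSeq genes regardless of strand, keeping at most 3 copies per position and 1 transcript per gene (tool versions are not given in the sources used here), and they deposited FPKM per 10000000 reads. In the table, 1 line was a fragment of another and was dropped, and 4 other value columns, of times outside the labelled samples, were not used here. The ChIP-seq samples were not analysed here.

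The product of FPKM and length was a whole number of reads for 100% of low values (within 0.05 reads), which gave reads and depth (8587561 to 27036785), used for description and counting intervals and for no count test. Low values piled up at 6 reads and, in every library but WT at 48 h, at 2 reads. Intervals therefore used reads divided by 6, a choice made after seeing the data. Scaling used median-of-ratios size factors, genes with a mean scaled FPKM times kb of at least 100 were kept (8628), and log2 values used a pseudocount of 0.1. With 1 library per condition there was no test. A change was counted past 1.5-fold and set beside the percent of all genes past it.

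All 9 members are named. Of the iron list, genes past 1.5-fold between genotypes at 3 or more times, or at 24 h in both genotypes, are named by rule, and the others named at 48 h were picked after their values were seen. For members spanning at least 2-fold, the 3 genes with the highest Pearson r are named. The members, lists and rules were chosen with earlier results of these data known. Alternatives were unscaled values, upper-quartile scaling, pseudocounts of 1 and 0.01, a fold of 2, 2 other filters and subtraction of a lowess curve (fraction 0.3) on expression level. The steps were tested on simulated data. Hairpins were read from mm9 and its GENCODE annotation, and promoters from RefSeq. Tools were matplotlib 3.10.9, statsmodels 0.14.6, scipy 1.17.1, pandas 2.3.3, numpy 2.4.6 and Python 3.11.15.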

Additional observations from a re-analysis of the deposited data

Results flagged for a closer look

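From 0 to 6 h after KLA, 3 genes moved in opposite directions in the 2 genotypes, with counting intervals clear of 0 on both sides. The log2 change in Arntl-/- minus that in WT was 1.203 for Fth1 (0.55 against -0.65), 0.91 for Ftl1 (0.35 against -0.57) and 0.49 for Slc11a1 (0.25 against -0.24). With 1 library per condition the difference was not tested. WT at 6 h was the deepest library (27036785 reads), and the opposite directions of all 3 rest on it. With the trend by expression level subtracted, the changes were 0.17 in Arntl-/- and 0.27 in WT for Fth1, -0.02 and 0.29 for Ftl1, and 0.04 and 0.17 for Slc11a1. The part of depth in these values was not tested.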

How the results depend on the processing

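No paired analysis was possible because each condition had 1 library and the labels give no replicate numbers, and leaving out a library removes its condition. The filters and the fold of 2 cannot change a member's log2 value. Each pseudocount left all 90 values inside the counting interval of the reported value. Upper-quartile scaling took 2 outside it, unscaled values 15, and subtraction of the expression trend 33, while a further 3 that were past 1.5-fold as reported turned in direction with the trend subtracted: Fth1 between genotypes at 6 h (-0.14), Fth1 from 0 to 6 h in WT (0.27) and Ftl1 from 0 to 48 h in Arntl-/- (-0.11). Counting values of any size, 30 changed sign, 7 of them unscaled and 23 with the trend subtracted. Genes nearest to Slc40a1, Lcn2 and Hp shared 1 of 3 with those from unscaled values.

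Counts of members past 1.5-fold that changed were these. Unscaled values gave 1 between genotypes at 6 h (2 as reported), 0 at 6 h in WT (1), 1 at 6 h in Arntl-/- (2), 7 at 48 h in WT (8) and 3 at 24 h in Arntl-/- (4). Upper-quartile scaling gave 1 between genotypes at 0 h (0) and 2 at 6 h in WT (1). A fold of 2 gave 0 between genotypes at 6 and 48 h, 0 at 6 h in each genotype, 1 at 24 h and 4 at 48 h in WT, and 2 at 24 h and 5 at 48 h in Arntl-/-. Subtraction of the trend gave 1 between genotypes at 6 h, 0 at 6 h in each genotype, 3 at 24 h in Arntl-/- (4), 5 at 48 h in WT (8) and 4 in Arntl-/- (7).

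Counts of the iron list that changed by over 1.5 times were these. A fold of 2 took them to 0 in every comparison but 24 h in WT (1) and 48 h in Arntl-/- (4). A mean of at least 10 gave 5 between genotypes at 0, 6 and 48 h, 5 at 6 h in WT and in Arntl-/-, 9 at 24 h in WT and 7 in Arntl-/-. A WT maximum of at least 100 gave 2 between genotypes at 6 h and 2 at 6 h in WT. Subtraction of the trend gave 0 between genotypes at 6 and 24 h and 6 at 48 h in WT. Among smaller changes, 48 h in WT (11) and Arntl-/- (13) became 16 and 18 with the lower filter, and Arntl-/- became 9 with the trend subtracted. The cause of these shifts was not tested beyond what each alternative sets.

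Over all genes, counts between genotypes at 0, 6, 24 and 48 h were 199, 222, 246 and 527. A fold of 2 gave 23, 13, 25 and 72, and the lower filter 1071, 916, 1321 and 1977. Subtraction of the trend gave 113 at 6 h. Counts from 0 h to 6, 24 and 48 h were 537, 1156 and 2081 in WT and 336, 1211 and 2529 in Arntl-/-. They were 70, 288 and 773, and 47, 327 and 947, with a fold of 2, and 1445, 2506 and 3759, and 1204, 2386 and 4172, with the lower filter.

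Left unscaled, the median of all genes shifted by over 0.1 (log2) from 0 to 6 h (0.11) and 0 to 48 h in WT (-0.13), from 0 to 48 h in Arntl-/- (-0.17) and between genotypes at 6 h (-0.11). The share of called genes that were higher went from 59.3 to 79.1% between genotypes at 0 h, from 68.9 to 16.9% at 6 h and from 59.8 to 73.9% at 24 h. From 0 h it went from 51.0 to 92.5% at 6 h and from 47.0 to 29.6% at 48 h in WT, and from 58.9 to 39.5%, 48.4 to 38.0% and 48.1 to 28.6% at 6, 24 and 48 h in Arntl-/-. Upper-quartile scaling took it from 59.3 to 48.5% between genotypes at 0 h and from 48.1 to 59.1% at 48 h in Arntl-/-, and subtraction of the trend from 51.0 to 68.2% at 6 h in WT. The lower filter took it from 68.9 to 40.1% between genotypes at 6 h, from 51.0 to 62.1% at 6 h in WT and from 58.9 to 45.9% at 6 h in Arntl-/-, and a WT maximum of at least 100 took the first to 56.4%.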

Other observations

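Small numbers of reads were not spread evenly over whole numbers. In WT at 48 h, 150 genes had 2 reads, 281 had 3, 39 had 5, 476 had 6 and 190 had 7. In Arntl-/- at 0 h 598 had 2, 175 had 3, 109 had 5 and 298 had 6. Intervals on single reads would be narrower than those printed: for Slc40a1 at 6 h the log2 difference of -0.85 would run from -0.99 to -0.71.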
